A study of Mus musculus with 4 samples.

Results

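The deposited expression table annotates 2207 of its 54532 rows as microRNA (miRNA) genes, and 45 of them had a mean of at least 1 FPKM (fragments per gene length and library size) over the 4 libraries. These 45 loci, chosen by that mean, are described here. A further 2017 miRNA rows had no read in any library, and 145 had reads but a lower mean. By name, 30 of the 45 were Mir genes, 14 were predicted Gm genes and 1 was Snord43, which carries the name of a small nucleolar RNA. Because the threshold used the same 4 values that the groups are compared on, a locus that passed it through 1 group alone had to differ between groups. Of the 45 loci, 15 had a mean of at least 1 FPKM in WT only, 11 in Piezo1KO only and 19 in both groups. Counts of loci and their medians are therefore descriptions.

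The labels call the cells CD4+ T lymphocytes that had entered B16 tumours, which grow from a pigmented mouse melanoma line, and they were flow sorted. The 2 WT libraries are called WT 1 and WT 2 here, and the 2 libraries of genotype Piezo1KO are called Piezo1KO 1 and Piezo1KO 2, by the sample number of their titles. Values are given for library 1 first and library 2 second, WT before Piezo1KO. No source used here gives strain, age, the way Piezo1 was removed, the cells in which it was removed or any pooling of animals. Piezo1 is a mechanically opened cation channel, and the series addresses its part in the formation of Th9 cells.

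MicroRNAs are cut from hairpins in longer primary transcripts, first by Drosha with Dgcr8 in the nucleus and then, after export by Xpo5, by Dicer1 in the cytoplasm. The mature strand is loaded into an Argonaute protein and pairs with messenger RNAs through its seed, the bases just after its 5′ end. Many hairpins lie in introns of host genes and are transcribed with them. The labels name an mRNA library kit and no small RNA library. A value over a miRNA row is therefore the number of reads assigned to the hairpin's interval, which is no measure of the mature miRNA.

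Assigned reads numbered 13789266 to 15892797 per library. The value that 1 read gave at the loci's median length of 83 bases was 0.611 and 0.592 FPKM in the WT libraries, and 0.817 and 1.61 FPKM in the Piezo1KO libraries. Of assigned reads, mitochondrial transcripts took 3.86% and 2.99% in the WT libraries, and 20.1% and 48.3% in the Piezo1KO libraries. Summed levels of 12 T cell markers were 2.39 and 2.19 FPKM in the WT libraries and 15.7 and 10.3 FPKM in the Piezo1KO libraries. In a library, 0 to 5 of the 12 were at 0. The sums for 10 melanocyte markers were 6803 to 7492 FPKM, with none of them at 0. In WT 1, WT 2, Piezo1KO 1 and Piezo1KO 2, 6 erythroid markers summed to 389, 244, 5124 and 8473 FPKM, 6 neutrophil markers to 0.713, 1.25, 141.8 and 47.8 FPKM, and 8 macrophage markers to 63.9, 47.4, 213 and 165 FPKM. Piezo1 itself had 27.8 and 27.6 FPKM in the WT libraries and 18.7 and 7.64 FPKM in the Piezo1KO libraries, which did not pass the test (log2 fold change -1.14, SE 0.41, limma adjusted p = 0.166). The melanocyte sums were of similar size in all 4 libraries, and the other measures moved with the groups or with single libraries. The part of all these measures in the values of the miRNA loci was not tested. Fewer cells of a type and less RNA per cell cannot be told apart in such bulk libraries.

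The most abundant loci share 1 sequence. The loci Gm23935 and Gm24270 are predicted miRNA genes of 57 bases with identical letters, and Gm24187 and Gm25911 are close copies. This stretch also occurs in the large-subunit ribosomal RNA, which is background knowledge and was not matched here. Their sequences follow 5′ to 3′ from GENCODE M21 (GRCm38), with capitals at letters that differ from Gm23935. Gm25911 also lacks 1 base.
Gm23935: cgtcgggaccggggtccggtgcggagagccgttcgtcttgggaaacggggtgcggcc
Gm24270: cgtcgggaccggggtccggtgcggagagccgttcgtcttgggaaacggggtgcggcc
Gm24187: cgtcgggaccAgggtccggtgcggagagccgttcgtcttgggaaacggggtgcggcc
Gm25911: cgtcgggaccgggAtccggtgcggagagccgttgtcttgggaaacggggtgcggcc

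A small nucleolar RNA and a short tandem repeat are shown next, because their letters are those of another known element. Snord43 holds the letters of the C box (ATGATGA) and, at 2 places, of the D box (CTGA) that mark box C/D small nucleolar RNAs, in capitals. Gm22121 opens with 6 copies of TGAGC in a row, also in capitals, and Gm25033 has 11 copies in all. At least 3 such copies in a row occurred in 9 of 2202 miRNA rows (0.409%) with a sequence, searched on the annotated strand.
Snord43: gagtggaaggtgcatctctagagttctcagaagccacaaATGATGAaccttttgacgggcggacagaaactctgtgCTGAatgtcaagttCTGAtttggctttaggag
Gm22121: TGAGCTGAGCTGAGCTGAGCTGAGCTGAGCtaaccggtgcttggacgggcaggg

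For 26 of the 45 loci a mature sequence was found in the RefSeq table (GRCm38.p6), 42 mature sequences in all. The ones below belong to loci whose values are given here, with the seed (bases 2 to 8) in capitals. The pair miR-132-3p and miR-212-3p shared a seed, as did miR-7679-3p and miR-8116. Mir7679, named for this seed, had 7 reads in WT 2 and 0 in the other libraries. No other seed was shared between mature miRNAs of different loci among the 26.
miR-5125: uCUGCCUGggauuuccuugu
miR-7a-5p: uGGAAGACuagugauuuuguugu
miR-211-5p: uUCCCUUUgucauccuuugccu
miR-23a-3p: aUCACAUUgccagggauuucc
miR-132-3p: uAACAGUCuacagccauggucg
miR-212-3p: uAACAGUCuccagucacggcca
miR-8116: aAGGAUCCggggcuaguuggc
miR-7679-3p: cAGGAUCCcaggguaccaaccagc
miR-378b: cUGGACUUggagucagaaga
miR-6960-3p: aGCCAACCaccucucuccucag
miR-703: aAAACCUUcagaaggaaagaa

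The 45 loci were 54 to 139 bases long, and most rested on few reads. Whole reads per row could be recovered from the FPKM values, and the loci had a median of 10 reads over the 4 libraries together, with a lowest total of 3. Totals were under 10 reads for 21 loci and at least 30 for 6. Only 11 loci had reads in all 4 libraries. Another 10 had reads in 1 library alone, and 6 of those had them in Piezo1KO 2, where a read counts for most FPKM. The number of the 45 loci at 0 reads was 10 in WT 1, 12 in WT 2, 24 in Piezo1KO 1 and 23 in Piezo1KO 2. Over all miRNA rows, 93 and 118 rows had a read in the WT libraries, against 34 in each Piezo1KO library.

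**Figure D1:**
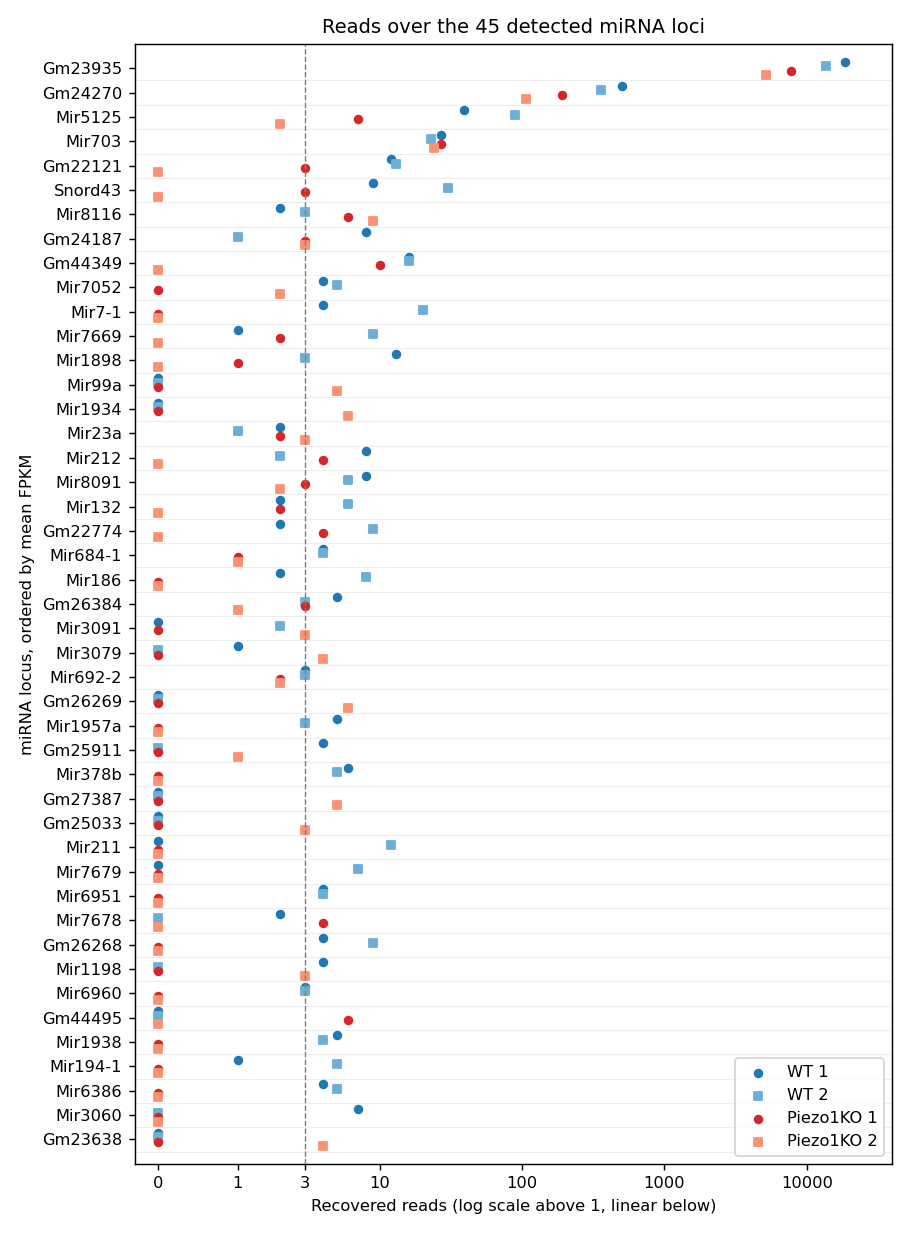
Recovered reads over each of the 45 loci (rows, ordered by mean FPKM) in the 4 libraries (blue WT, red Piezo1KO, circles library 1 and squares library 2), on an axis that is logarithmic above 1 and linear below. The dashed line marks 3 reads, the floor used for a library at 0, and points for Gm23935 lie at 5176 reads or more while most other points lie at 10 reads or fewer.

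At the threshold, Gm23638, Mir3060 and Mir6386 were just inside with mean FPKM of 1.06, 1.07 and 1.08. They rested on 4 reads in Piezo1KO 2, on 7 reads in WT 1, and on 4 and 5 reads in the WT libraries. Just outside were Gm22184 with 0.991 (5 reads in WT 2), Mir153 with 0.967 (2 reads in Piezo1KO 2) and Mir1929 with 0.929 (1 and 6 reads in the WT libraries). Without Piezo1KO 1, Gm23638 and Mir6386 passed the test of the groups (limma adjusted p of 0.00177 and 0.00403). In that fit 52.9% of all 11085 genes tested passed, and 14.2% passed without Piezo1KO 2, so a pass in either fit, here and for the loci that follow, says little about a locus. The rows on both sides of the threshold had similar read numbers.

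Gm23935 held 95.3% to 96.4% of the reads over the 45 loci in each library. It lies on chromosome 16 (GRCm38, 11144125 to 11144181, plus strand), opposite an intron of Zc3h7a. Its FPKM was 16467 and 11711 in the WT libraries and 9175 and 12116 in the Piezo1KO libraries, from 18508, 13583, 7713 and 5176 reads. The groups overlapped, at 14089 ± 3363 and 10646 ± 2080 FPKM (SD, n = 2 each), and the locus did not pass the test (log2 fold change -0.40, SE 0.66, limma adjusted p = 0.686). As a share of assigned reads, the same locus took 0.118% (exact 95% binomial interval 0.117 to 0.120%) and 0.0855% in the WT libraries, and 0.0503% and 0.0375% in the Piezo1KO libraries. On that scale both Piezo1KO values lay below both WT values. With FPKM scaled to assigned reads the locus passed, with -1.21 on the log2 scale (limma adjusted p = 0.00297), and the median over the whole table moved to -0.67.

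Gm24270, with the same letters, lies in an intron of Peak1 on chromosome 9 (56223715 to 56223771, minus strand). It had 449 and 309 FPKM in the WT libraries and 228 and 250 FPKM in the Piezo1KO libraries, so both Piezo1KO values lay below both WT values. The difference did not pass (log2 fold change -0.64, SE 0.27, limma adjusted p = 0.197). Its host Peak1, a scaffold kinase gene, was at 1.03 to 1.68 FPKM, so the locus stood 238 times above the mean of its host. Of the reads over Gm23935 and Gm24270 together, Gm24270 took 2.66% (exact 95% binomial interval 2.43 to 2.89%) and 2.57% (2.31 to 2.84%) in the WT libraries, and 2.43% (2.10 to 2.79%) and 2.03% (1.66 to 2.44%) in the Piezo1KO libraries. How reads that match both loci were placed was not tested, and no source used here names the aligner. Gm24245, another exact copy among miRNA rows, had 0 reads in all 4 libraries.

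The close copies had far fewer reads. Gm24187 had 7.12, 0.862, 3.57 and 7.02 FPKM in WT 1, WT 2, Piezo1KO 1 and Piezo1KO 2, from 8, 1, 3 and 3 reads, with the highest and the lowest value both in WT. Its log2 fold change of 0.64 did not pass (limma adjusted p = 0.574) and was -0.42 without WT 2. Gm25911, named for its sequence and not by the naming rule, had 4, 0, 0 and 1 reads.

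**Figure D2:**
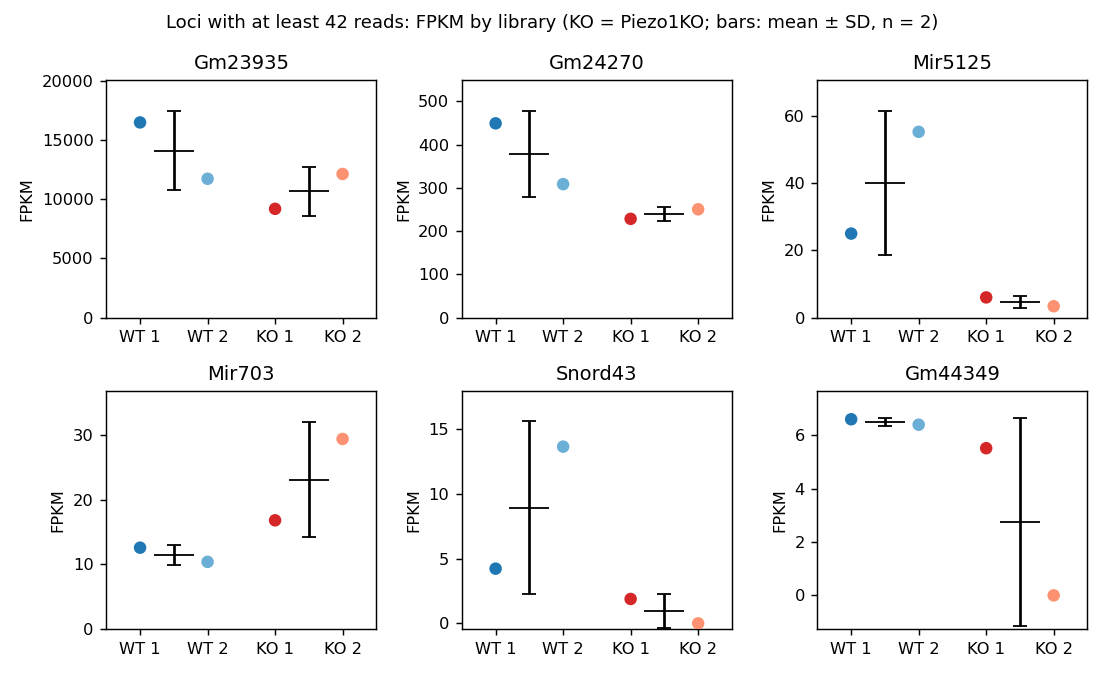
FPKM in each library (x axis, KO for Piezo1KO) of the 6 loci with the most reads, each on its own linear axis, with the group mean ± SD (n = 2). Gm23935 overlaps between groups, Gm24270, Mir5125 and Gm44349 are lower in both Piezo1KO libraries than in both WT libraries, Mir703 is higher in both, and Snord43 is lower in both.

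Another kind of locus matches a highly expressed messenger RNA. Mir703 (chromosome 5, 98475556 to 98475664, minus strand, opposite an intron of Cfap299) was 98.2% identical over 109 bases to Eef1a1, the translation elongation factor gene, which was at 2703 to 4065 FPKM. Mir703 had 12.6 and 10.4 FPKM in the WT libraries and 16.8 and 29.4 FPKM in the Piezo1KO libraries, from 27, 23, 27 and 24 reads. Both Piezo1KO values lay above both WT values, although the read numbers themselves were nearly the same in all 4 libraries. The difference did not pass (log2 fold change 0.90, SE 0.30, limma adjusted p = 0.152), and with FPKM scaled to assigned reads it was 0.14. Without Piezo1KO 1 it was 1.29 and passed (limma adjusted p = 0.00542). Its level was 0.425%, 0.384%, 0.496% and 0.723% of that of Eef1a1 in the 4 libraries in the same order, where Eef1a1 itself differed by 0.39 on the log2 scale (limma adjusted p = 0.523).

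Gm26384, also 98.2% identical to Eef1a1, had 5, 3, 3 and 1 reads and a log2 fold change of -0.15, which was 0.10 without WT 1, 0.035 without Piezo1KO 2 and 0.020 in voom. Mir692-2, which lies in an exon of the ferritin pseudogene Ftl2-ps, was identical to Ftl1-ps1, a copy at 38.98 to 70.2 FPKM, and 97.2% identical to Ftl1, which encodes the ferritin light chain and was at 1661 to 3260 FPKM. The locus had 3, 3, 2 and 2 reads and a log2 fold change of 0.23, which was -0.28 with FPKM scaled to assigned reads and -0.081 without Piezo1KO 2. Without Piezo1KO 1 it was 0.54 and passed (limma adjusted p = 0.0301). In all, 14 of the 45 loci matched at least 1 other gene at 95% identity or more over 90% of their length or more, and their reads may belong to that gene.

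Placement against GENCODE M21 showed 22 of the 45 loci (48.9%) in an intron of a host gene on the same strand and 3 in an exon. A further 11 lay opposite an intron, 1 opposite an exon and 8 between genes. Of the other 2162 miRNA rows, 36.3% were in a same-strand intron, 18.5% in a same-strand exon and 30.5% between genes. No source used here gives the strand setting of the counting, so reads over a locus opposite a gene cannot be told apart from reads of that gene.

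Reads were found more often where the host gene had a higher level. Among miRNA rows with a same-strand host under 1 FPKM, 11 of 597 (1.84%) had a read in any library and 4 (0.670%) reached the 1 FPKM mean. For hosts of 1 to 10 FPKM, 54 of 353 rows (15.3%) had a read, and for hosts of 10 to 50 FPKM, 36 of 188 (19.1%). For hosts of 50 FPKM or more, 18 of 62 rows (29.03%) had a read and 5 (8.06%) reached the mean. These shares are a description with no test, since host and locus values come from the same libraries.

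**Figure D3:**
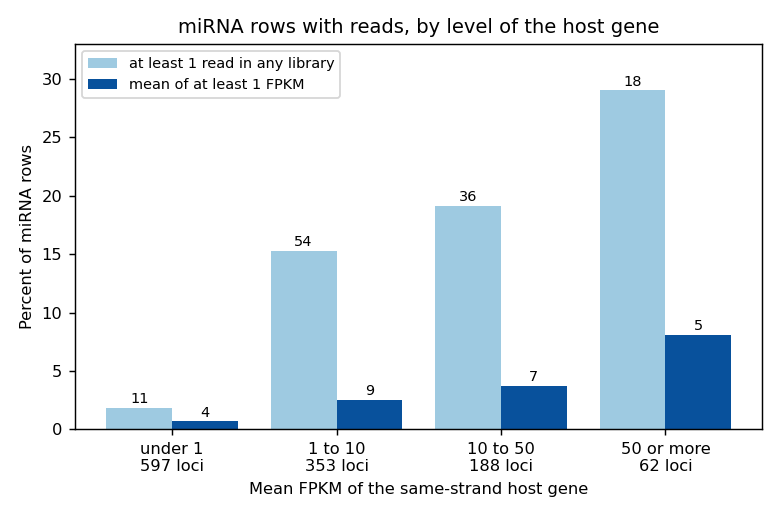
Percent of miRNA rows with at least 1 read in any library (light bars) and with a mean of at least 1 FPKM (dark bars), in 4 ranges of the mean FPKM of the same-strand host gene, with the number of rows above each bar. Both percentages are lowest for hosts under 1 FPKM (1.84% and 0.670%) and highest for hosts of 50 FPKM or more (29.03% and 8.06%).

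Among the intronic loci, Mir5125 had the most reads after Gm24270. It lies in a 1090-base intron of Srrm2, a gene for a large splicing protein, on chromosome 17 (23823291 to 23823369, plus strand). It had 25.04 and 55.4 FPKM in the WT libraries and 6.01 and 3.38 FPKM in the Piezo1KO libraries, from 39, 89, 7 and 2 reads. The groups did not overlap, at 40.2 ± 21.4 and 4.69 ± 1.86 FPKM (SD, n = 2 each), but the difference did not pass (log2 fold change -2.79, SE 0.45, limma adjusted p = 0.0878). Leaving out either Piezo1KO library took it past the threshold (limma adjusted p = 0.0111 without Piezo1KO 1 and 0.0473 without Piezo1KO 2). Its host had 25.9, 32.8, 17.9 and 7.79 FPKM and differed by -1.22 on the log2 scale (limma adjusted p = 0.152).

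Mir7-1, a source of miR-7a, lies in an intron of Hnrnpk, which encodes an RNA-binding protein of the nucleus (chromosome 13, 58392779 to 58392886, minus strand). It had 4 and 20 reads in the WT libraries and 0 in both Piezo1KO libraries, at least 1.96-fold lower against a floor of 3 reads per library. That bound rests on WT 2, since the 1.88 FPKM of WT 1 are under the Piezo1KO floor of 2.79 FPKM. The difference did not pass (limma adjusted p = 0.132), and its log2 value was -1.53 without WT 2 and -3.34 without WT 1. Its host was nearly level at 83.9, 85.2, 87.4 and 97.3 FPKM (log2 fold change 0.12, limma adjusted p = 0.606).

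Mir186 in Zranb2, a splicing factor gene, had 2 and 8 reads in the WT libraries and 0 in both Piezo1KO libraries, with its host at 8.13 to 9.04 FPKM. At 3 reads per Piezo1KO library the level would exceed the WT mean, so no fold is given, and the difference did not pass (limma adjusted p = 0.132). Mir211 lies in an intron of Trpm1, a channel gene expressed in melanocytes and here at 42.2 to 46.5 FPKM. All 12 of its reads were in WT 2, and the log2 fold change of -1.36 was 0 without that library. Mir7669 in Ubap2l had 1 and 9 reads in the WT libraries and 2 and 0 in the Piezo1KO libraries with overlapping groups, and its log2 fold change of -1.14 was -0.037 without WT 2.

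Snord43, listed as miRNA in the deposited table, lies in an intron of Rpl3, a ribosomal protein gene, on chromosome 15 (80082847 to 80082954, minus strand). It had 4.23 and 13.7 FPKM in the WT libraries and 1.88 and 0 FPKM in the Piezo1KO libraries, from 9, 30, 3 and 0 reads. The ratio of read rates (reads per library size as implied by FPKM), Piezo1KO over WT, was 0.139. Its 95% counting interval was 0.0274 to 0.436, which covers counting error only. In the fit the log2 fold change was -2.37 (SE 0.72, limma adjusted p = 0.145), and -3.13 without Piezo1KO 1, which passed (limma adjusted p = 0.0211). It was -1.60 without Piezo1KO 2 and -1.62 without WT 2. Rpl3 had the opposite sign, at 286, 279, 390 and 552 FPKM (log2 fold change 0.71, limma adjusted p = 0.171).

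Mir1898 in Zfr, a zinc finger RNA-binding protein gene, had 13 and 3 reads in the WT libraries and 1 and 0 in the Piezo1KO libraries. The ratio of read rates was 0.113 with a 95% counting interval of 0.00268 to 0.725, and limma gave an adjusted p of 0.158. The log2 fold change of -1.89 was -1.04 without WT 1, which held 13 of the 16 WT reads, and -2.73 without WT 2. Mir8116 lies in an intron of Ache, the acetylcholinesterase gene, and was the opposite case. It had 1.05 and 1.52 FPKM in the WT libraries and 4.19 and 12.4 FPKM in the Piezo1KO libraries, from 2, 3, 6 and 9 reads, with no overlap of the groups (log2 fold change 1.88, SE 0.48, limma adjusted p = 0.132). Without Piezo1KO 1 or without Piezo1KO 2 it passed, with limma adjusted p of 0.00248 and 0.0314. Ache stood at 0.953 to 1.53 FPKM (log2 fold change 0.13), below its intronic locus. For Mir7669, described above, the ratio of read rates was 0.360. Its counting interval of 0.0384 to 1.69 included 1, unlike that of Mir1898.

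Of the 22 intronic loci, 3 ended at the last base of their intron, flush with the next exon. These were Mir7052 in Josd2, Mir6951 in Azin1 and Mir6960 in Troap. Mir7052 had 4, 5, 0 and 2 reads and a log2 fold change of -0.97, which was 0.20 without Piezo1KO 1 and -2.15 without Piezo1KO 2, where it passed (limma adjusted p = 0.00819). Reads that run from the intron into the exon cover such a locus as well. No locus filled its intron, and introns measured 173 to 73393 bases.

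Set beside their hosts, 21 loci had a same-strand host that could be tested, and 18 of them had a lower log2 fold change than the host. Another grouping of the 21 takes the 18 that lie in introns, of which 16 had a lower value than the host. Over these intronic loci the median was -1.53 for the loci and 0.056 for the hosts. The 3 loci with a higher value than their host were Mir8116, Mir1198 and Mir692-2. Mir3091 and Mir7678 lie in Rps21 and Slpi, 2 hosts with a positive log2 fold change of 1.86 and 2.42, and had 0.73 and 0.49 themselves. Mir1198, Mir3091 and Mir7678 were named after their values were seen. Of the 21 host genes, 0 passed limma and 8 had an unadjusted p under 0.05, beside 3170 of all 11085 genes. Their log2 fold change was positive for 13 and negative for 8, with a median of 0.062. In voom 0 hosts passed too, and without Piezo1KO 1 or without Piezo1KO 2 the counts were 11 (52.4%) and 4 (19%), beside 52.9% and 14.2% of all genes. Many of the intronic loci, Mir7-1 and Mir186 among them, had a mean of at least 1 FPKM in WT only. The rule thus fixed their negative direction, while it did not use the host values, so these counts and medians are a description. The difference between locus and host was not tested, and a locus at 0 has a log2 fold change set by the added 1 FPKM.

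**Figure D4:**
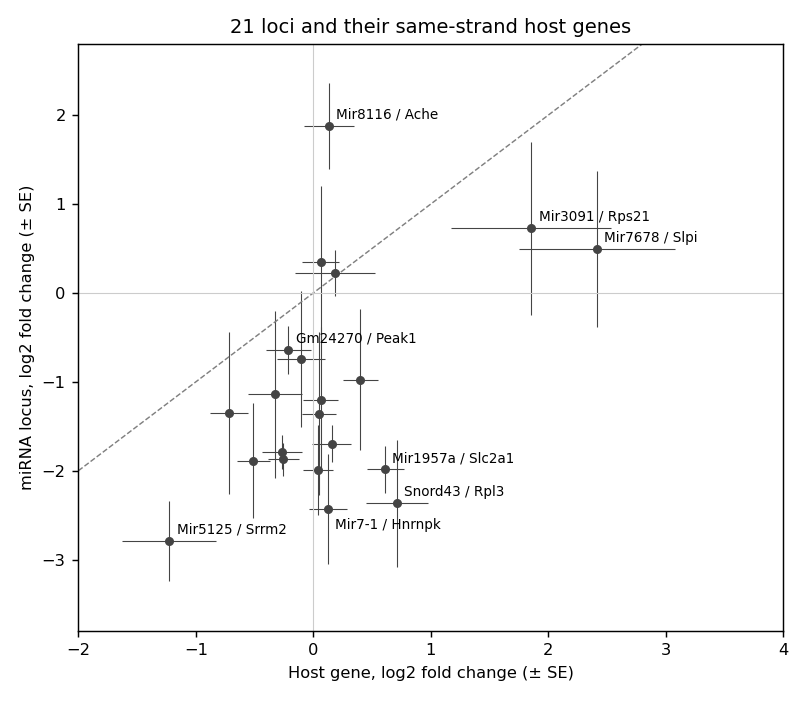
Log2 fold change of FPKM + 1 (Piezo1KO minus WT, ± SE) of 21 loci (y axis) against that of their same-strand host genes (x axis), with the dashed line where both are equal. Points for 18 loci lie below the line, among them Mir5125, Snord43 and Mir7-1, and the hosts spread around 0. Many of the loci, Mir7-1 among them, reached the 1 FPKM mean through WT alone, which fixes their direction.

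Mir132 and Mir212 are 2 neighbours in 1 intron of 1700016P03Rik on chromosome 11, known as a pair induced by neural and immune stimuli. Mir132 had 2, 6, 2 and 0 reads and Mir212 had 8, 2, 4 and 0 reads in WT 1, WT 2, Piezo1KO 1 and Piezo1KO 2. The order of the WT libraries was thus opposite for the neighbours, and neither passed (log2 fold change -1.09 and -0.76, limma adjusted p of 0.307 and 0.538). Without Piezo1KO 2 the value for Mir212 was 0.24, and without Piezo1KO 1 that for Mir132 was -1.90 and passed (limma adjusted p = 0.0363). Their host was below the filter at a mean of 0.704 FPKM. For Mir132 the ratio of read rates was 0.450, and its counting interval of 0.0466 to 2.26 included 1.

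Between genes lie Mir23a and Mir8091. Mir23a opens the cluster of miR-23a, miR-27a and miR-24, which is expressed in many blood cells. It had 1.35 and 0.655 FPKM in the WT libraries and 1.81 and 5.34 FPKM in the Piezo1KO libraries, from 2, 1, 2 and 3 reads. The groups did not overlap in FPKM, although WT 1 and Piezo1KO 1 had 2 reads each. The ratio of read rates, 3.002, had a 95% counting interval of 0.584 to 19.3, and limma gave an adjusted p of 0.1895. That ratio uses the library sizes implied by FPKM and was not computed on assigned reads. Without Piezo1KO 1 it passed (limma adjusted p = 0.0104). Its neighbour Mir27a had 2 reads in WT 2 and 0 elsewhere, and Mir24-2 had 0 in all libraries. Mir8091 had 8, 6, 3 and 2 reads, and a log2 difference of -0.38 (limma adjusted p = 0.255).

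Other miRNA families, among them ones known from T cells, myeloid cells, red cells or melanocytes, had few or no reads. A list of 80 rows held let-7, mir-17 to mir-92, mir-15 and mir-16, mir-29, mir-30, mir-23 to mir-27, mir-181, mir-142, mir-146, mir-155, mir-21, mir-22, mir-223, mir-144 and mir-451, mir-204 and mir-211, mir-221 and mir-222, mir-200 and mir-34. Of these, 9 had a read, and only Mir23a and Mir211 reached the 1 FPKM mean. Mir146 had 2 reads in WT 2 and 1 in Piezo1KO 2, and Mir142b had 1 read in Piezo1KO 1. Mir155, Mir21a, Mir22 and Mir223 had 0 reads in all 4 libraries. At the median length, 3 reads would be 1.83, 1.78, 2.45 and 4.82 FPKM in the 4 libraries in the usual order, which is the level that 0 reads still allows at that length.

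The comparison across the table tested 11085 genes with limma on log2(FPKM + 1), and 122 (1.1%) passed an adjusted p of 0.05, 81 of them (0.731%) higher and 41 (0.37%) lower in Piezo1KO. Of the 45 loci 3 passed, all lower, and 17 had an unadjusted p under 0.05, beside 3170 of all 11085 genes. The median log2 fold change was -0.74 for the loci and -0.0059 for all genes tested. With groups at 0 set to their floor of 3 reads per library, the medians were 0.064 and -0.0026. That floor is the level that 0 reads still allows and no estimate. More loci were at 0 in Piezo1KO (13) than in WT (7), so this setting raises the loci's median. The sign of the loci's median thus depends on how groups at 0 are treated. Negative values were found for 29 loci and positive ones for 16. Without WT 1 or without WT 2 all genes fell short of the threshold, so those fits cannot decide on the loci. The median of the loci was -0.37 without WT 1 and -0.55 without WT 2. The count of loci that passed moved with the Piezo1KO library left out. It was 24 (53.3%) without Piezo1KO 1 and 12 (26.7%) without Piezo1KO 2, where 52.9% and 14.2% of all 11085 genes passed. With FPKM scaled to assigned reads 32 loci passed, 8 of them higher and 24 lower, against 15.4% of all genes, and the higher share of all calls was 16.2% in place of 66.4%, with the median of all genes at -0.67. The 17 loci that the naming rule leaves out had mean levels of 1.11 to 2.57 FPKM from 3 to 15 reads, and log2 fold changes of -1.98 to 1.75, negative for 7 and positive for 10.

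The loci that passed were Mir378b, Mir6951 and Mir6960, each with nearly the same few reads in both WT libraries and none in Piezo1KO. They reached the 1 FPKM mean through WT alone, which fixes their direction. Mir378b lies opposite an intron of Msi2, an RNA-binding protein gene, on chromosome 11 (88352773 to 88352864, plus strand), and had 6 and 5 reads in the WT libraries (log2 fold change -1.99, SE 0.19, limma adjusted p = 0.0391). Mir6951, in an intron of the antizyme inhibitor gene Azin1, had 4 and 4 reads (-1.87, SE 0.18, limma adjusted p = 0.0391). Mir6960, in an intron of the spindle gene Troap, had 3 and 3 reads (-1.79, SE 0.19, limma adjusted p = 0.0433). Their WT means were 2.99, 2.66 and 2.46 FPKM, while 3 reads in each Piezo1KO library would give 3.28, 4.02 and 4.95 FPKM. A lower level in Piezo1KO is thus not resolved at this depth, no fold can be given, and the fitted size depends on the added 1 FPKM. None of the 3 passed in voom or with 0.1 added in place of 1. They did not pass without a filter either, where 1 of 23654 genes passed. The fits without WT 1 or without WT 2 cannot decide on these loci, as all genes fell short of the threshold there. The hosts Azin1 and Troap had log2 fold changes of -0.25 and -0.27 and did not pass.

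**Figure D5:**
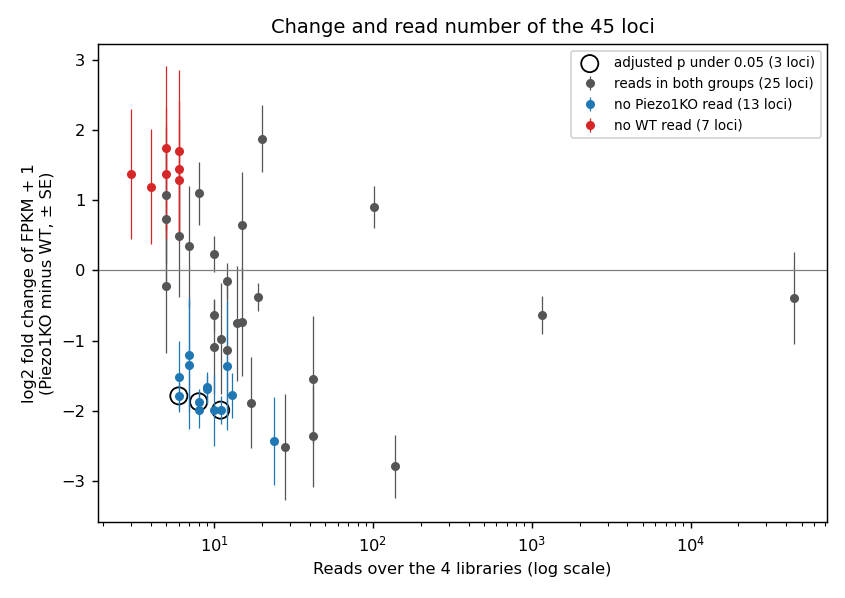
Log2 fold change of FPKM + 1 (y axis, Piezo1KO minus WT, ± SE) against the reads over the 4 libraries (x axis, log scale) for the 45 loci, coloured by whether a group had no read, with rings on the 3 loci that passed limma. The ringed loci had 11, 8 and 6 reads, and every locus without a read in 1 group had 24 reads or fewer.

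No Piezo1KO read was found for 13 loci, which had 6 to 24 WT reads, and no WT read for 7 loci, which had 3 to 6 Piezo1KO reads. All of these 20 reached the 1 FPKM mean through 1 group alone, which fixes their direction. A bound on the fold could be given for 6 of these 20. Besides Mir7-1, Gm26268 was at least 1.07-fold lower, from 4 and 9 WT reads (limma adjusted p = 0.0991, and 0.0203 without Piezo1KO 1). Without WT 2 no bound is left, as the 1.61 FPKM of WT 1 are under the floor of 2.40 FPKM. Gm26268 and Gm26269 are among the 14 loci that matched other genes, to which their reads may belong. The other 4, named after their values were seen, had all their reads in Piezo1KO 2. Mir99a and Gm27387 had 5 reads each and were at least 2.23-fold higher in FPKM. Mir1934 and Gm26269 had 6 reads each and were at least 2.67-fold higher. The implied library size behind FPKM was 0.544 times the assigned reads in Piezo1KO 2, against 1.26 and 1.28 times in WT. In reads, the 5 or 6 of Piezo1KO 2 stand beside 3 assumed in each WT library. The size of these bounds thus depends on the library sizes implied by FPKM, and they were not computed on assigned reads. None of the 4 loci passed (limma adjusted p of 0.343 to 0.347). Piezo1KO 1 had 0 reads at all 4, so these bounds rest on 1 library, and without Piezo1KO 2 no read is left.

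The groups did not overlap for 18 loci with Piezo1KO below WT, 10 of them with 0 reads in Piezo1KO, and for 3 loci with Piezo1KO above WT (Mir703, Mir8116 and Mir23a). Over all 11085 genes the groups did not overlap for 35.6% below and 33.9% above. Gm22121 and Gm44349 were 2 of the 18. Gm22121, the TGAGC repeat locus, had 12 and 13 reads in the WT libraries and 3 and 0 in the Piezo1KO libraries, a ratio of read rates of 0.216 with a 95% counting interval of 0.0418 to 0.708 (limma adjusted p = 0.144). Without Piezo1KO 1 or without Piezo1KO 2 it passed (limma adjusted p of 0.00123 and 0.00858). Gm44349, which lies opposite an exon of Elp5, had 16 and 16 reads in the WT libraries and 10 and 0 in the Piezo1KO libraries. Its log2 fold change was -1.55 (SE 0.90, limma adjusted p = 0.290) and -0.20 without Piezo1KO 2. Without Piezo1KO 1 it was -2.91 and passed (limma adjusted p = 0.00141).

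Other short noncoding rows were described in the same way. Of 153 tested rows of at most 200 bases with another biotype, 24 (15.7%) passed limma, all lower in Piezo1KO, with a median log2 fold change of -0.93. Of the 24, 22 had no Piezo1KO read and so reached the 1 FPKM mean through WT alone, which fixes their direction. With 3 reads per library assumed for groups at 0, which is the level that 0 reads still allows and no estimate, the median of the 153 rows was 0.12. Small nucleolar RNAs made up 22 of the 24, from 65 tested rows with a median of -1.96. Small nuclear RNAs gave the other 2, from 28 rows with a median of -1.10. Mitochondrial transfer RNAs (17 rows, median 2.26) and processed pseudogenes (30 rows, median 0.82) had medians on the positive side, with 0 calls each. Without WT 1 or without WT 2 all genes fell short of the threshold, so those fits cannot decide on these rows. The median of the 153 rows was -1.02 without WT 1 and -0.61 without WT 2. It was -0.95 without Piezo1KO 1 and -0.88 without Piezo1KO 2. In voom 0 of the 153 rows passed. The shortest of these rows had 17 bases, so the FPKM of 1 read ranged more widely than among the miRNA loci, which had 54 to 139 bases, and no test was made between the sets.

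Genes that make, load or degrade miRNAs showed no call in limma. Of 60 listed genes that the files held, 55 were tested and 0 passed, with a median of -0.20. An unadjusted p under 0.05 was found for 14, beside 3170 of all 11085 genes. In voom 1 passed, lower. Without Piezo1KO 1 or without Piezo1KO 2, 29 (52.7%) and 8 (14.5%) passed, beside 52.9% and 14.2% of all genes. Dicer1, which cuts the hairpin loop, had 5.24 and 5.99 FPKM in the WT libraries and 2.51 and 2.12 FPKM in the Piezo1KO libraries (log2 fold change -0.996, limma adjusted p = 0.0802). Drosha, which makes the first cut, had 17.8, 21.02, 23.7 and 17.2 FPKM, with overlapping groups and a log2 fold change of 0.062.

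Tnrc6c, Tnrc6a and Tnrc6b encode the GW182 scaffolds that link Argonaute to messenger RNA decay. They had log2 fold changes of -1.11, -0.67 and -0.75 (limma adjusted p of 0.0525, 0.118 and 0.122), with both Piezo1KO values below both WT values for each. Limd1, a decay body protein gene, had -0.76 (limma adjusted p = 0.111). Zfp36, which encodes the decay factor tristetraprolin and is also an early response gene, had 10.04 ± 0.764 FPKM in WT and 48.2 ± 24.9 FPKM in Piezo1KO (SD, n = 2 each), with both Piezo1KO values above both WT values (log2 fold change 2.06, limma adjusted p = 0.104). Ago2, the main slicing Argonaute, had 43.002, 42.3, 36.4 and 24.99 FPKM. Over the 55 genes, the groups did not overlap for 27 below and 9 above, beside 35.6% and 33.9% of all genes.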

How the data were processed

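The authors deposited 1 table of FPKM values for 54532 genes in 4 libraries. Per the submitters' processing notes, fastp 0.19.7, featureCounts 1.5.0-p3 and the build mm10 (GRCm38) were used. Aligner, annotation release, strand setting and FPKM formula were not given in the sources used here. The product of FPKM and gene length was a whole multiple of 1 step per library (100% of values above 0, tolerance 0.05 reads), which gave reads. The implied library size was 1.26, 1.28, 0.962 and 0.544 times the assigned reads in WT 1, WT 2, Piezo1KO 1 and Piezo1KO 2.

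Genes with a mean of at least 1 FPKM were tested as log2(FPKM + 1), which understates changes of low values, with limma 3.58.1 in R 4.3.3 (intensity trend, no block, two-sided, Benjamini-Hochberg over 11085 genes, threshold 0.05). The fit had 2 residual and 2.59 prior degrees of freedom. It was run on simulated data in which only genes at a WT mean of 5 FPKM or more were changed. Of the 45 loci, 40 had a mean under 5 FPKM, so that run does not speak to most of them. No exact test of 2 against 2 libraries can go below p = 0.333. The labels do not say that libraries came from separate animals, so p-values measure only the spread between libraries, which may be technical.

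Genes were placed with GENCODE M21, whose coordinates matched for all 45 loci, and similar sequences were searched with BLAST 2.17.0. 1 sequence and its matches are not reported here. Bounds use 3 reads per library at 0. Ratios of read rates divide the reads of a group by its implied library size, not by its assigned reads. Intervals cover counting error only.

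Loci were named with values if they passed the test or were among the 12 highest by mean FPKM. Among loci with 10 or more reads, those with the 8 highest and the 8 lowest log2 fold changes were named. Only 4 loci with that many reads had a positive log2 fold change. Loci were also named if they lay within 10 kb of another locus, belonged to listed families or were nearest the threshold. Host genes and up to 6 pathway genes by smallest p were added, with Drosha and Ago2 named for their roles. The loci and lists were chosen with earlier results of these data known. Alternatives were other pseudocounts, filters and scalings, voom on recovered reads, a replicate block and leaving out each library.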

Additional observations from a re-analysis of the deposited data

How the results depend on the processing

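Reads per locus limit these results: 3 reads in Piezo1KO 2 equal 4.82 FPKM at the median length. With FPKM scaled to all assigned reads, 1707 genes (16.2% of them higher, against 66.4% in the main analysis), 32 miRNA loci (8 higher), 111 other short rows, 5 hosts and 17 pathway genes passed. The Piezo1 log2 fold change was then -1.87 (limma adjusted p = 6.37e-04). With scaling to reads outside mitochondrial genes, 6 miRNA loci and 1 pathway gene passed, 56.2% of calls were higher and the median of all genes was -0.20. Without a filter 1 gene, 0 miRNA loci and 0 short rows passed (4156, 14 and 128 at an unadjusted p under 0.05). At 5 FPKM or more 68 of 6582 genes (85.3% higher, 1909 unadjusted), 0 of 5 miRNA loci (3 unadjusted) and 6 short rows passed. A pseudocount of 0.1 gave 0 miRNA loci (16 unadjusted, beside 3222 of 11085 genes) and a locus median of -2.02. In voom 0 miRNA loci and 0 short rows passed (3 and 49 unadjusted, beside 3443 of 11085 genes). There 1 pathway gene passed, and 88.0% of 83 called genes were higher. Of 80 loci at 0.5 FPKM or more 3 passed, of 19 at 2 FPKM or more 0, and of 24 with 10 or more reads 1.

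The labels number the libraries 1 and 2 in both groups, but same-numbered libraries did not deviate together (correlation -0.033), so the numbers were not taken as pairs. With the replicate block 264 genes, 7 miRNA loci, 37 short rows and 1 pathway gene passed.

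Leaving out 1 library at a time gave 0 to 5859 genes, 0 to 24 miRNA loci, 0 to 103 short rows, 0 to 11 hosts and 0 to 29 pathway genes, and Piezo1 at -1.73 to -0.55. The lowest counts came without WT 1 or without WT 2 and the highest without Piezo1KO 1; a library left alone in its group is assumed to vary like the other group. The cause was not tested. The sign turned for Gm24187 (-0.42 without WT 2, range up to 1.70), Mir7052 (0.20 without Piezo1KO 1, range down to -2.15), Mir212 (0.24 without Piezo1KO 2, range down to -1.75), Gm26384 (0.020 in voom, 0.10 without WT 1, 0.035 without Piezo1KO 2, range down to -0.40) and Mir692-2 (-0.28 with assigned scaling, -0.081 without Piezo1KO 2, range up to 0.54).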
